A study of Mus musculus with 4 samples.

Results

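The 9 genes described here are the fibrinogen chains *Fga*, *Fgb* and *Fgg*, the clotting initiator *F3*, its inhibitor *Tfpi*, the thrombin receptor *Thbd*, the plasminogen activators *Plat* and *Plau*, and the activator receptor *Plaur*. They were picked by symbol from the 52636 genes of the deposited table, and all 9 were found. They were chosen by their measured levels and changes in these same cells, so every level and change given for them is a description and none is a test. In the luminal cells of the mouse mammary gland *Fgb*, *F3* and *Fgg* were the abundant ones of the 9, and *Plaur* was far lower. Per 1000000 transcripts of all cells, *Fgb* stood at 748.1, *F3* at 605.7, *Fgg* at 301.1 and *Plaur* at 19.6, while the α chain gene *Fga* was found in 4 cells of 32439. *Fgb* and *Fgg* were lower in mutant than in WT cells and *F3* was slightly higher.

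Fibrinogen is a plasma protein that hepatocytes assemble from paired α, β and γ chains, encoded by *Fga*, *Fgb* and *Fgg*, and that thrombin cleaves into the fibrin of a clot. Tissue factor, the product of *F3*, sits on cells outside the bloodstream and starts clotting when it meets plasma, tissue factor pathway inhibitor (*Tfpi*) shuts that start down, and thrombomodulin (*Thbd*) on endothelium turns thrombin towards an anticoagulant role. Tissue-type and urokinase-type plasminogen activators (*Plat* and *Plau*) make the plasmin that dissolves fibrin, and the urokinase receptor (*Plaur*) holds urokinase at the cell surface. Fibrin and fibrinogen also lie in the extracellular matrix, where integrins bind them.

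Luminal cells were sorted from the pooled thoracic and abdominal glands of 3 C57BL/6N mice per genotype, aged 6 weeks. Control mice were ErbB3+/+;MMTV-Cre (WT) and mutant mice ErbB3V943R/V943R;MMTV-Cre, in which arginine replaces a valine of the receptor ERBB3 (V943R), a change made to impair its role as an activator of partner receptors. Both genotypes carry the Cre transgene, which a mouse mammary tumour virus promoter drives in mammary epithelium. The mutant locus gives wild-type *Erbb3* until Cre has acted on it, and UMI counts do not show a codon change, so the share of recombined cells was not tested. Each pool was sequenced as a pair of droplet libraries, called A and B here and always given in that order, without matching between genotypes, because the table does not carry their replicate numbers. A library held 6849 to 9627 cells and 30019745 to 38009351 UMIs (unique molecular identifiers, counted once per mRNA molecule captured), with a median of 3154 to 4027 UMIs per cell. Levels are UMIs per 1000000 UMIs of the same cells (CPM). The kit counts 3′ ends, so a transcript gives the same count at any length, and UMIs of different genes can be set side by side as far as their ends were captured alike. With 1 pool of mice per genotype there were no biological replicates and no test was made. The 95% intervals in parentheses cover counting error only.

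The authors' classes were used as deposited, with clusters 1 and 2 as luminal progenitors (LP), cluster 3 as luminal intermediate cells (LI), clusters 4 through 11 as mature luminal cells (ML), and clusters 12 and 13 as rare. The classes carried their markers. The 4 LP markers summed to 1869.8 to 1972.6 CPM in LP cells and to 53.7 to 57.3 CPM in ML cells by library, and the 5 ML markers to 448.5 to 588.4 CPM in LP cells and 3218.5 to 3984.2 CPM in ML cells. Cluster 12 held fibroblast markers at 4942.8 to 13499.8 CPM and endothelial markers at 2043.2 to 4114.0 CPM, and cluster 13 immune markers at 15182.8 to 21945.7 CPM. Of 31923 distinct barcodes, 511 occurred in more than 1 library, with 71 to 111 shared by any pair of libraries.

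The fibrinogen genes lie side by side on chromosome 3 (GRCm38), within 42140 bases. *Fgg* (ENSMUSG00000033860) spans 83007724 to 83015049 on the plus strand, *Fga* (ENSMUSG00000028001) 83026076 to 83033627 on the plus strand, and *Fgb* (ENSMUSG00000033831) 83040141 to 83049863 on the minus strand. The gaps between them are 11026 and 6513 bases. *F3* (ENSMUSG00000028128) lies far off on the same chromosome, from 121723537 to 121735048 on the plus strand. Because the neighbouring fibrinogen genes were so unequal in level, the 250 bases before their RefSeq starts are printed, with those of *F3* for comparison. They were read 5′ to 3′ on the strand of the gene from the RefSeq promoter table (GRCm38.p6). Capitals mark 2 short motifs searched on both strands. CTGGGA is the core of the element through which IL-6 and STAT3 act on fibrinogen genes in liver, and GAGTCA is the core of the AP-1 site, which appears as TGACTC where it lies on the opposite strand. No marked motifs overlap. The windows are chr3:83007474-83007723 for *Fgg*, chr3:83025903-83026152 for *Fga*, chr3:83049864-83050113 on the minus strand for *Fgb* and chr3:121723287-121723536 for *F3*.
Fgg: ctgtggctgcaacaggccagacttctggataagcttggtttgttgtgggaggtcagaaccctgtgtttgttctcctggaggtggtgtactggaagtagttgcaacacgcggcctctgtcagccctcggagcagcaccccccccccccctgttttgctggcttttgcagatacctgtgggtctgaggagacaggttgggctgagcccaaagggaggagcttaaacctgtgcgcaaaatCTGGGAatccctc
Fga: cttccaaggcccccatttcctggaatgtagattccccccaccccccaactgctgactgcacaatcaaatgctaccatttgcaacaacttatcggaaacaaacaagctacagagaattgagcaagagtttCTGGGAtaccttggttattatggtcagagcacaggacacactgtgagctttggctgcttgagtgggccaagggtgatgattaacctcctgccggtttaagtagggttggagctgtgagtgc
Fgb: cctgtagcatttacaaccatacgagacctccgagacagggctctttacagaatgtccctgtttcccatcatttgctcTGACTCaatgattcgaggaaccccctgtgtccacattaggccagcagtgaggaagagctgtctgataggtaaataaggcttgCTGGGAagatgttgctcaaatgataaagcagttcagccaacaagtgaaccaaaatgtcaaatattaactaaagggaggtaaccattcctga
F3: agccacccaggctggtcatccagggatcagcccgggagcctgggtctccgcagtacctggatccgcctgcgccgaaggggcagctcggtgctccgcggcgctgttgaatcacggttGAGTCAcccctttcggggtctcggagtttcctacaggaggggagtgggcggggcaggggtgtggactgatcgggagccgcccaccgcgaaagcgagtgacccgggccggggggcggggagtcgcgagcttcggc

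CTGGGA occurred in the windows of all 3 fibrinogen genes, 13 bases before the start of *Fgg*, 121 before that of *Fga* and 91 before that of *Fgb*. GAGTCA occurred 173 bases before *Fgb*, on the opposite strand, and 134 before *F3*. Of 32851 windows of this length in the table, 27.0% held CTGGGA and 12.9% GAGTCA. The nearly silent *Fga* and the abundant *Fgb* therefore shared CTGGGA in these windows. The RefSeq start of *Fga* lies downstream of the first base given above for the gene, so its window runs into that span and its distances are counted from the RefSeq start. A match of letters is a description and no evidence of a bound site.

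*Fgb*, the β chain gene, was the most abundant of the 9 genes in WT cells, and *F3* in mutant cells. It took 30874 and 35222 UMIs in WT libraries A and B and 16258 and 19007 UMIs in mutant libraries A and B, or 880.4, 926.7, 541.6 and 586.7 CPM. Both mutant libraries lay below both WT libraries. Over all cells it had 101361 UMIs, which placed it at rank 149 of all genes. *Fgg*, the γ chain gene, took 13598, 14685, 6100 and 6415 UMIs in the same order, or 387.7, 386.4, 203.2 and 198.0 CPM, and again the genotypes did not overlap.

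*Fga*, which encodes the α chain that a complete fibrinogen molecule needs, had 2 and 1 UMIs in the WT pair and 1 and 0 in the mutant pair. In the WT pool there were 22032 *Fgb* UMIs per *Fga* UMI (7538.6 to 106838) and 9427.7 *Fgg* UMIs per *Fga* UMI (3225.6 to 45718.4). No difference in *Fga* between genotypes was detectable from 4 UMIs. The annotation gives *Fga* 2 coding transcripts with 2 different ends, and whether the authors' counting took reads from both was not tested. *Fgg* has 2 coding transcripts with 2 ends as well, and its first bases overlap *Gm30097*, an RNA gene on the opposite strand with 21 UMIs in all. Whether strand was used in counting is not given in the sources used here, and reads of the overlap cannot then be told apart. The overlap ends at 83008488, while *Fgg* runs on to 83015049 and the kit counts 3′ ends. The nearest coding gene beside *Fgb*, the splicing factor gene *Plrg1*, stood at 92.6 CPM in WT and 87.2 CPM in mutant cells.

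**Figure D1:**
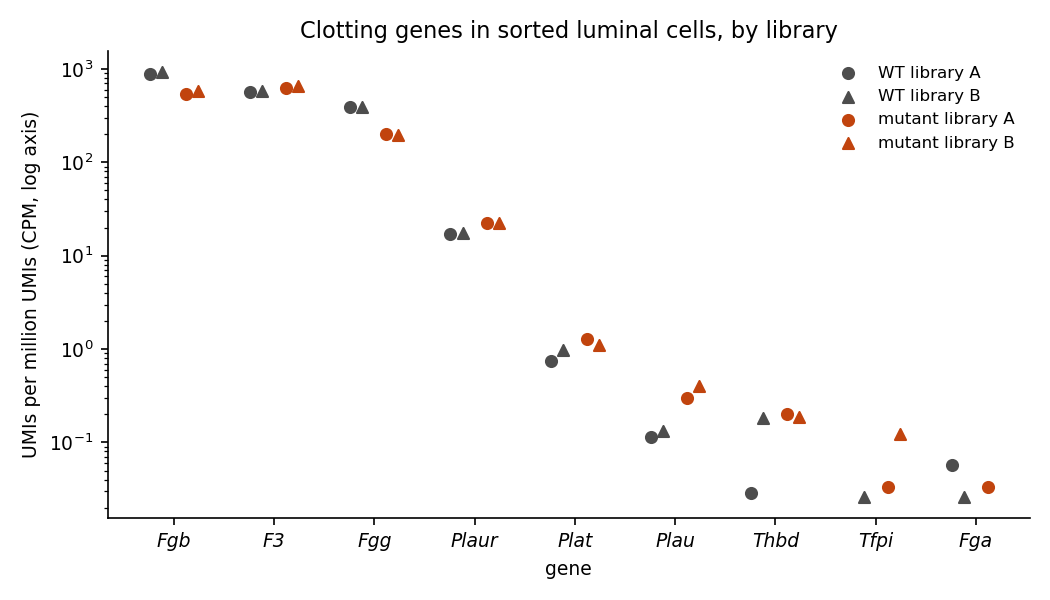
CPM of the 9 genes over all cells of each library on a log axis, with WT libraries in grey and mutant libraries in orange, and A and B as circles and triangles. A library with 0 UMIs has no point (WT library A for Tfpi, mutant library B for Fga). Fgb, F3 and Fgg stand highest, Plaur near 20 CPM, and the other 5 genes near 1 CPM or below it.

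Hepatocyte markers were scarce in these libraries. The 6 hepatocyte markers summed to 1.45 and 1.58 CPM in WT and 2.30 and 2.19 CPM in mutant libraries, higher in the mutant, from 251 UMIs in all cells together. *Apoa2* gave 150 of these, *Apoa1* 85, *Ttr* 10, *Ahsg* 4 and albumin (*Alb*) 2, and *Serpina1a* had none. Platelets carry fibrinogen too, and their markers *Ppbp* and *Gp9* had 1 and 2 UMIs, and *Pf4* 32 UMIs. A further 901 UMIs of that list were *Itga2b*, at 5.87 to 7.13 CPM by library.

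Both abundant chains were found mainly in ML cells, which held 90.7% of the *Fgb* UMIs and 89.0% of the *Fgg* UMIs of the WT pool and 90.3% and 88.0% of those of the mutant pool. Of the UMIs of all genes, ML cells held 77.7% in the WT pool and 73.2% in the mutant pool. *Fgb* stood at 1055.9 CPM in WT ML cells, 618.8 CPM in LI cells and 166.1 CPM in LP cells. *Fgg* stood at 443.5, 335.4 and 66.3 CPM. In mutant cells *Fgb* stood at 697.6, 337.4 and 89.2 CPM and *Fgg* at 241.2, 151.7 and 35.7 CPM. Since free RNA in droplets gives UMIs to cells that do not express a gene, the LP values were set beside cluster 13, the immune cells. With each cell thinned at random to 1000 UMIs, a UMI of *Fgb* was found in 8.22% of WT LP cells (7.29% to 9.24%) and in 10.8% of the WT cells of cluster 13 (5.08% to 19.6%). For *Fgg* the shares were 4.16% (3.49% to 4.92%) and 4.82% (1.33% to 11.9%). Before thinning, the shares of LP cells and of cluster 13 were 15.9% and 18.1% for *Fgb* and 9.43% and 24.1% for *Fgg*, at medians of 2018 and 1899 UMIs per cell. The WT LP shares lay within the wide intervals of cluster 13, so at this depth they could not be told from the shares of that cluster, and no expression is read from them. In the mutant the *Fgb* shares were 4.95% of LP cells (4.20% to 5.79%) and 2.60% of cluster 13 (0.316% to 9.07%), or 10.3% and 9.88% before thinning. For *Fgg* the mutant shares were 2.10% and 2.60%. In CPM, mutant LP cells had 89.2 of *Fgb* and cluster 13 had 59.5. The intervals of cluster 13 cover the mutant LP shares too. Cluster 13 is an uneven comparison, since its *Fgb* level was 108.6 CPM in WT library A, below the 169.5 CPM of LP cells there, and 566.9 CPM in WT library B. Its ML markers summed to 746.9 to 2097.6 CPM by library, above the LP cells, with the highest sum in WT library B. Before thinning, *Fgg* was found in 73.3% of the WT cells of cluster 13 with *Fgb* and in 13.2% of the others. Whether the chain UMIs of cluster 13 came from free RNA or from droplets with more than 1 cell was not tested. In WT LP cells there were 2.50 *Fgb* UMIs per *Fgg* UMI (2.27 to 2.77), against 2.34 (2.31 to 2.37) in all WT cells and 2.68 (1.88 to 3.88) in cluster 13.

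Within the ML class the chains were spread unevenly over the clusters. Cluster 5 had the highest *Fgb* level in WT, with 1860.3 and 1905.5 CPM in libraries A and B. It was followed by cluster 7 at 1481.5 CPM and cluster 6 at 1367.5 CPM, which were not apart by library, cluster 11 at 1289.2 CPM, cluster 8 at 974.6 CPM and cluster 4 at 827.3 CPM. Cluster 9 at 643.8 CPM and the LI cluster 3 at 618.8 CPM were not apart. Cluster 10, though labelled ML, had 135.2 and 142.3 CPM of *Fgb*, below LP cluster 1 in both libraries. The LP clusters 1 and 2, at 161.7 and 180.3 CPM, overlapped. In mutant cells cluster 5 was also first, with 1233.2 and 1394.1 CPM, and cluster 1 last, at 77.7 CPM.

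*Fgg* followed another order. In WT cells it was highest in cluster 11, with 888.1 and 858.4 CPM, then in cluster 8 at 506.4 CPM and cluster 9 at 474.1 CPM, which overlapped, and in clusters 7 and 4 at 411.1 and 408.4 CPM, which overlapped too. Clusters 3, 6 and 5 stood between 328.6 and 335.4 CPM and could not be ordered. Cluster 10 held 186.0 CPM, and the LP clusters 2 and 1 held 76.6 and 63.2 CPM. In mutant cells cluster 11 was first again at 535.4 CPM, and the next 6 places could not be ordered between neighbours. The clusters were drawn by the authors from the same expression values, so these levels describe the clusters and test nothing about them.

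**Figure D2:**
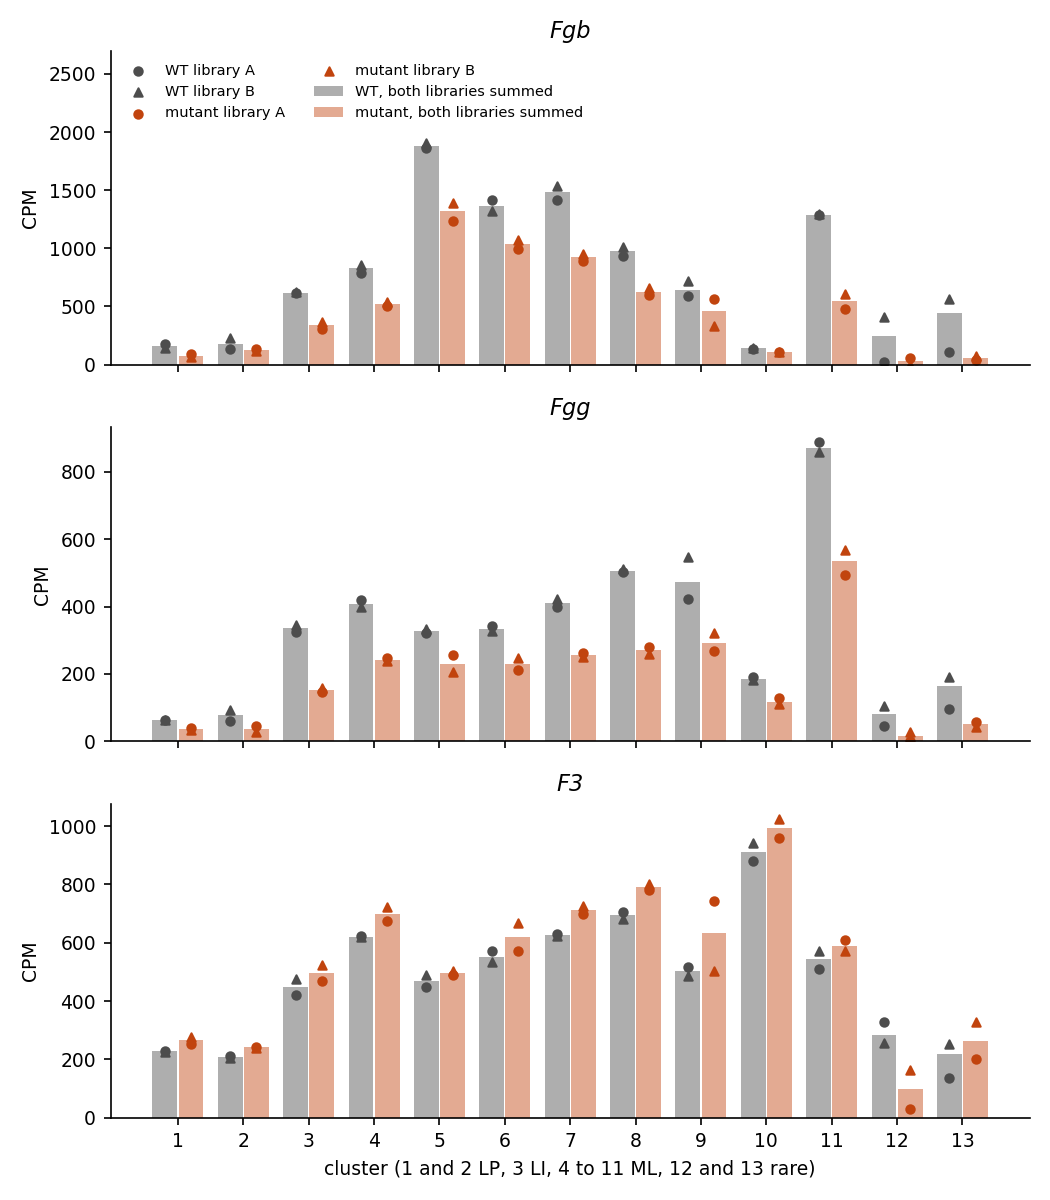
CPM of Fgb, Fgg and F3 in each of the 13 clusters, with bars from 0 for the summed libraries of a genotype (WT grey, mutant orange) and points for libraries A (circle) and B (triangle). Fgb peaks in cluster 5, Fgg in cluster 11 and F3 in cluster 10, and in clusters 1 through 11 the mutant bar is lower for Fgb and Fgg and higher for F3.

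The number of *Fgb* UMIs per *Fgg* UMI therefore differed between clusters. WT cluster 5 had a ratio of 5.73 (5.42 to 6.07), cluster 6 of 4.09 and cluster 7 of 3.60. Cluster 11 had 1.48 (1.44 to 1.52), and in cluster 10 *Fgg* outnumbered *Fgb*, at 0.747 (0.697 to 0.799). In mutant cells the ratio was 5.77 in cluster 5, 3.61 in cluster 7 and 0.922 (0.841 to 1.01) in cluster 10. Cluster 11 fell to 1.02 (0.947 to 1.11) in the mutant, with 1.45 and 1.51 in the WT pair and 0.964 and 1.06 in the mutant pair. Over all ML cells the ratio was instead higher in the mutant, with 2.30 and 2.45 in the WT pair and 2.73 and 3.04 in the mutant pair.

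**Figure D3:**
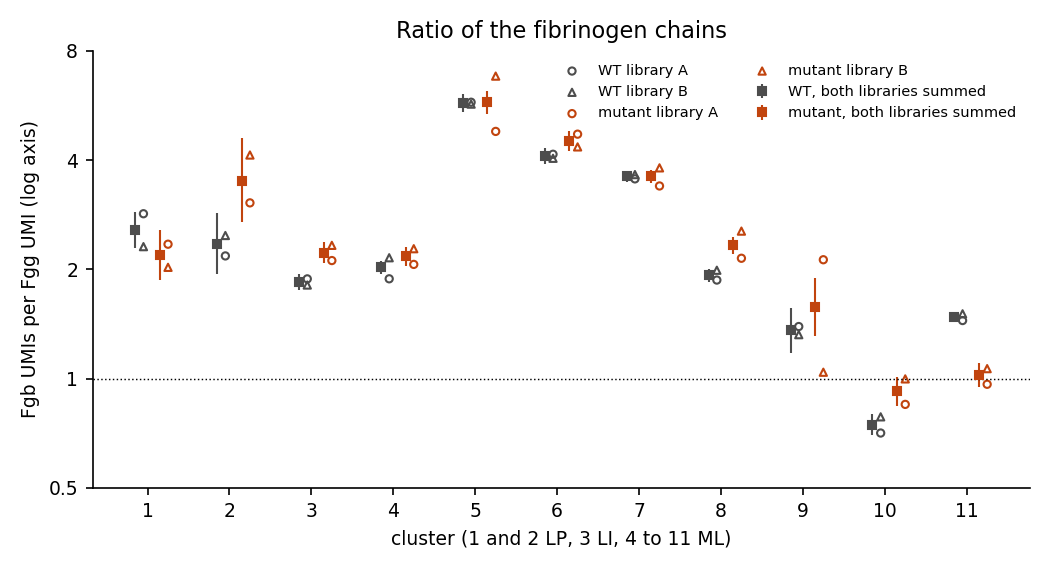
UMIs of Fgb per UMI of Fgg in clusters 1 through 11 on a log axis, with squares for the summed libraries and their 95% counting intervals, and open circles and triangles for libraries A and B (WT grey, mutant orange). The WT ratio spans 0.747 in cluster 10 to 5.73 in cluster 5, and in cluster 11 it is lower in both mutant libraries.

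Single cells held the chains in uneven numbers. In WT ML cells thinned to 1000 UMIs, 34.4% had an *Fgb* UMI (33.6% to 35.2%) and 27.7% an *Fgg* UMI (27.0% to 28.5%), and 13.6% had both. In mutant ML cells 25.1% had *Fgb* (24.3% to 26.0%), 17.0% had *Fgg* (16.2% to 17.7%) and 6.99% had both (6.49% to 7.52%). *Fgg* was found in 39.4% of the WT ML cells with an *Fgb* UMI and in 21.6% of those without one, and in 27.8% and 13.3% of the mutant ML cells. Shares of the same order were found inside single clusters. In WT cluster 11 the shares with *Fgg* were 54.7% (51.8% to 57.5%) among cells with *Fgb* and 38.4% (36.0% to 40.7%) among the others, and in WT cluster 5 they were 25.1% (21.1% to 29.4%) and 17.7%, with intervals that overlap slightly. *F3* showed no such pairing with *Fgb* in WT ML cells, being found in 37.7% of the cells with an *Fgb* UMI and in 42.0% of those without. The 10% of WT ML cells richest in *Fgb* held 63.6% of its thinned UMIs, against 61.9% for *Fgg* and 45.9% for *F3*. The highest thinned count in a WT ML cell was 33 for *Fgb*, 22 for *Fgg* and 13 for *F3*. Before thinning, each of the 4 cells with an *Fga* UMI, all of them ML cells, also held *Fgb* and *Fgg*.

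**Figure D4:**
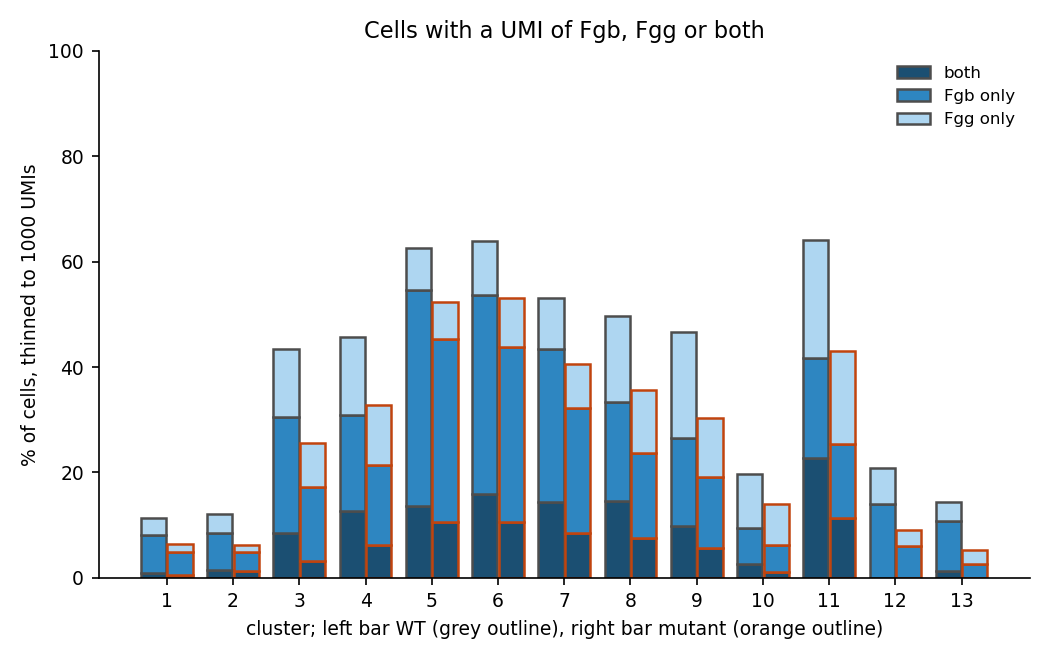
Stacked shares of cells with a UMI of both chains, of Fgb only and of Fgg only, in %, after each cell was thinned to 1000 UMIs, for clusters 1 through 13 (left bar WT, right bar mutant). The share with both chains is highest in WT cluster 11, at 22.8%, and is 11.4% in mutant cluster 11.

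The design compares mutant with WT luminal cells, which asks how impaired ERBB3 activator function relates to expression in the mammary lumen. A gene was said to meet the rule when its CPM differed by a fold of 1.5 or more, the genotype with more had at least 50 UMIs, and both mutant libraries lay beyond both WT libraries. In all cells *Fgb* was lower in the mutant by a log2 ratio of -0.68 (-0.70 to -0.66) and *Fgg* by -0.95 (-0.98 to -0.92), and both met the rule. Among all 16450 genes with enough UMIs, 1.17% were lower by this rule and 3.23% higher. Of the 9 genes, 5 had enough UMIs, 2 of them met the rule as lower and none as higher. The median log2 ratio was 0.02 over all genes tested and 0.14 over these 5. Without cluster 11 *Fgb* changed by -0.58 (-0.60 to -0.56), short of the fold of 1.5, while *Fgg* changed by -0.75 (-0.79 to -0.72) and still met the rule. Of all genes tested in all cells, 132 were lowered more than *Fgb* and 43 more than *Fgg*.

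*Fgb* and *Fgg* were each lower in the mutant in 11 of 11 luminal clusters. These include the LP clusters 1 and 2, and for *Fgb* cluster 10, where 9.42% of thinned WT cells had a UMI, and in these the part of free RNA was not tested. The libraries did not overlap in 10 of these for *Fgb*, with cluster 2 as the exception, and in 11 for *Fgg*. Among the 2274 genes with enough UMIs in every luminal cluster, 5.94% were lower in all of them and 8.71% higher. The *Fgb* ratio ranged from -1.24 (-1.32 to -1.15) in cluster 11 to -0.35 (-0.48 to -0.23) in cluster 10, and the *Fgg* ratio from -1.14 (-1.25 to -1.04) in cluster 3 to -0.52 (-0.64 to -0.40) in cluster 5. The order of the chains was not the same everywhere. In cluster 11, *Fgb* fell from 1283.2 and 1294.6 CPM in the WT pair to 477.1 and 605.1 CPM in the mutant pair, and *Fgg* fell from 888.1 and 858.4 CPM to 494.7 and 568.3 CPM, a log2 ratio of -0.70 (-0.79 to -0.62). In cluster 3, *Fgb* fell from 613.1 and 624.8 CPM to 306.3 and 370.1 CPM and *Fgg* from 325.8 and 345.3 CPM to 144.8 and 159.0 CPM. In cluster 11 the background was 3.17% of 10223 genes lower and 2.7% higher.

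By class, *Fgb* changed by -0.60 (-0.62 to -0.58) in ML cells and -0.88 (-0.95 to -0.81) in LI cells, and *Fgg* by -0.88 (-0.91 to -0.85) and -1.14. Both met the rule in ML cells, where 1.57% of 15157 genes were lower and 2.86% higher. *Fgb* met it narrowly, at a fold of 1.51. Its ML ratio fell short of the fold of 1.5 without WT library B (-0.56), without mutant library A (-0.54) and without the 6% of cells with the most UMIs (-0.56). In ML cells without cluster 11, *Fgb* changed by -0.52 and no longer met the rule and *Fgg* by -0.67 and did. In LP cells, whose shares could not be told from those of cluster 13, the ratios were -0.90 (-1.03 to -0.77) for *Fgb* and -0.89 (-1.10 to -0.69) for *Fgg*, against 0.606% of 11219 genes lower and 2.23% higher by the rule. Without the 6% of cells with the most UMIs in each library the LP ratio of *Fgb* was -0.54. In cluster 13, *Fgb* stood at 440.8 CPM in WT and 59.5 CPM in the mutant and *Fgg* at 164.4 and 51.0 CPM. The WT values of that cluster came mostly from library B, with 110 of its 118 *Fgb* UMIs, and the part of free RNA in the LP ratios was not tested.

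The genotypes also differed in cluster sizes. Cluster 11 held 12.9% of all UMIs of the WT pool and 3.86% of those of the mutant pool. It held 18.4% of the *Fgb* UMIs and 29.0% of the *Fgg* UMIs of the WT pool but 3.74% and 10.3% of those of the mutant pool. Mutant levels by cluster, averaged with the WT share of UMIs of each cluster, gave 552.9 CPM of *Fgb* and 231.0 CPM of *Fgg*, a log2 ratio to WT of -0.71 and -0.74. WT levels averaged with the mutant shares gave 885.5 and 339.9 CPM, which is -0.03 and -0.19. As arithmetic, the all-cell difference of *Fgb* lay almost wholly inside clusters, and that of *Fgg* mainly so. Inside a cluster, such sums do not show whether fewer cells held the RNA or each cell held less of it. The shares after thinning given above count cells at an equal number of UMIs, so they do not give the amount of RNA per cell.

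Genes of dissociation stress moved with the genotypes in the same direction as the chains. The 5 genes *Fos*, *Jun*, *Egr1*, *Atf3* and *Hspa1a*, none at 0, summed to 14968.4 and 15590.1 CPM in the WT pair and 12284.4 and 12917.5 CPM in the mutant pair. The 5 fibroblast markers summed to 15.0 and 13.8 CPM in WT ML cells and 5.43 and 4.38 CPM in mutant ML cells, and the 5 ML markers to 3821.6 and 3984.2 CPM and 3218.5 and 3457.2 CPM. Of the fibroblast markers, *Dcn* alone was lower over all cells, at 13.2 CPM in WT and 5.32 CPM in the mutant, and the other 4 were higher. Of the ML markers, *Pgr* alone was higher over all cells, at 126.6 CPM in WT and 132.9 CPM in the mutant. Their sum was mostly *Prlr*, at 1853.3 CPM in WT and 1664.0 CPM in the mutant, and *Cited1*, at 1278.6 and 903.1 CPM. Other lists moved the other way over all cells. The 4 LP markers summed to 329.1 and 345.4 CPM in WT and 363.7 and 389.6 CPM in mutant libraries, and the proliferation genes *Mki67* and *Top2a* to 115.9 and 111.6 CPM and 126.0 and 130.8 CPM. LP cells held 11.7% of the UMIs of the WT pool and 13.9% of those of the mutant pool. Within LP cells the LP markers overlapped, at 1875.5 and 1972.6 CPM in WT and 1869.8 and 1881.0 CPM in the mutant. Within LI cells they were lower in the mutant (652.4 and 729.6 against 565.8 and 623.9 CPM). Within ML cells they were slightly higher (54.6 and 53.7 against 57.3 and 56.8 CPM). The part of these lists in the *Fgb* and *Fgg* ratios was not tested.

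**Figure D5:**
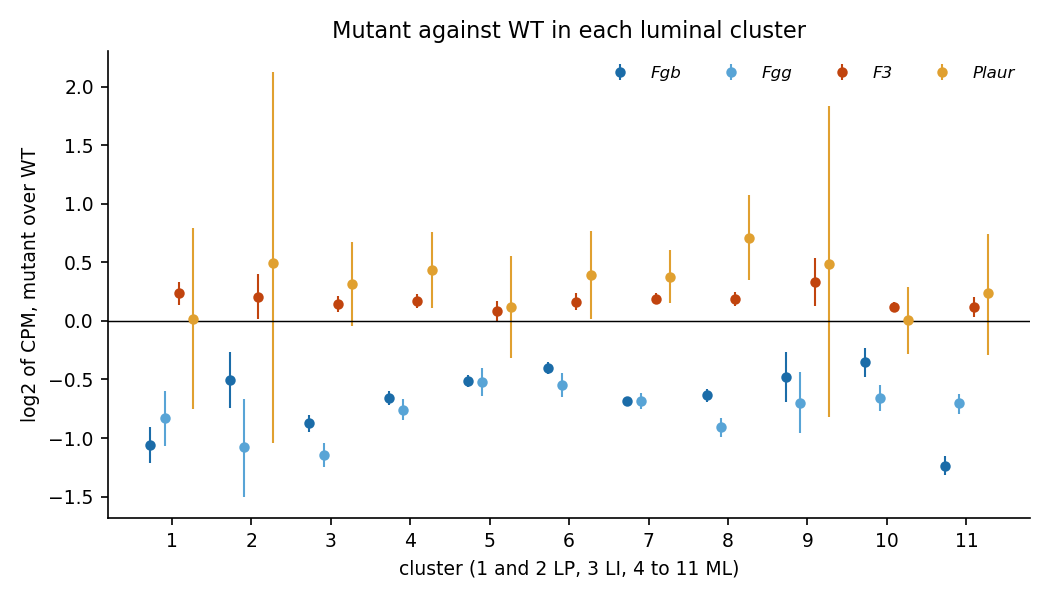
Log2 ratio of CPM, mutant over WT, of Fgb, Fgg, F3 and Plaur in clusters 1 through 11, with 95% counting intervals and a line at 0. All points of Fgb and Fgg are below 0, from -1.24 to -0.35, and all points of F3 and Plaur are above it, from 0.01 to 0.71, with wide intervals for Plaur.

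*F3* encodes tissue factor, the receptor that starts clotting. It took 20023 and 22311 UMIs in the WT pair and 18613 and 21124 UMIs in the mutant pair, or 571.0, 587.0, 620.0 and 652.1 CPM. The mutant libraries were both higher, but the ratio was small, at a log2 of 0.14 (0.12 to 0.16), and did not meet the rule. Of all genes tested, 31.8% were higher and 22.5% lower in both mutant libraries at any fold, so such a split is common here. *F3* was higher in 11 of 11 luminal clusters, from 0.08 (-0.01 to 0.17) in cluster 5 to 0.33 (0.12 to 0.54) in cluster 9, with libraries apart in 9 clusters. At the WT cluster mix its ratio was 0.16.

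*F3* was spread more evenly over the classes than the fibrinogen chains. In WT it stood at 652.1 CPM in ML cells, 448.1 in LI cells and 223.2 in LP cells, and in the mutant at 734.8, 495.3 and 261.5 CPM. With cells thinned to 1000 UMIs, 40.5% of WT ML cells (39.7% to 41.3%) and 18.6% of WT LP cells (17.3% to 20.1%) had an *F3* UMI, against 9.64% in cluster 13 (4.25% to 18.1%). The mutant shares were 45.3% for ML cells (44.3% to 46.3%), 20.9% for LP cells (19.5% to 22.5%) and 10.4% for cluster 13 (4.59% to 19.5%). In CPM, however, WT LP cells were level with cluster 13, at 220.4 CPM, and no order is read between them. The highest *F3* level was in cluster 10, with 880.6 and 942.1 CPM in the WT pair and 958.1 and 1024.3 CPM in the mutant pair. Cluster 8 followed at 694.5 CPM in WT. Clusters 7 and 4, at 626.1 and 621.1 CPM, were not apart, nor were clusters 6, 11, 9, 5 and 3 from their neighbours, between 448.1 and 551.8 CPM. *F3* was thus highest where *Fgb* was lowest among the ML clusters, with 0.152 *Fgb* UMIs per *F3* UMI in WT cluster 10 and 4.02 in WT cluster 5.

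*Plaur*, which encodes the urokinase receptor, took 605 and 669 UMIs in the WT pair and 666 and 722 UMIs in the mutant pair, or 17.3, 17.6, 22.2 and 22.3 CPM. The genotypes did not overlap and the log2 ratio was 0.35 (0.24 to 0.46), below the fold of the rule over all cells. Its ratio was above 0 in all 11 luminal clusters, with libraries apart in 6. It did not have enough UMIs in every cluster, with 7 WT and 10 mutant UMIs in cluster 2 and 10 and 13 in cluster 9, so the share of genes higher in all clusters does not cover it. In cluster 10 the ratio was 0.01 (-0.28 to 0.29). In cluster 8, which had the largest of the 11 ratios at 0.71 (0.35 to 1.08), it stood at 17.0 and 13.4 CPM in the WT pair and 25.7 and 24.5 CPM in the mutant pair. There it met the rule as higher, as did 2.17% of 9697 genes, while 1.37% were lower. By class *Plaur* stood at 19.6 CPM in WT ML cells, 15.8 in LI cells and 4.34 in LP cells. After thinning 1.86% of WT ML cells (1.65% to 2.10%) and 2.32% of mutant ML cells (2.02% to 2.64%) had a UMI, against 0.254% of WT LP cells. Of the cells of cluster 13, 0 of 83 WT cells had one (exact interval up to 4.35%) and 3.90% of mutant cells. The thinned shares of ML cells lay within the intervals of cluster 13. Before thinning, the WT shares were 7.25% of ML cells (6.83% to 7.69%) and 0 of 83, at medians of 3508 and 1899 UMIs per cell. In CPM, WT ML cells stood at 19.6 (18.5 to 20.8) and WT cluster 13 at 0 (up to 13.8), while mutant ML cells stood at 25.7 and mutant cluster 13 at 46.7.

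Both plasminogen activators were scarce. *Plau*, whose product urokinase binds the *Plaur* receptor, took 4 and 5 UMIs in the WT pair and 9 and 13 UMIs in the mutant pair, in 31 cells, 8 of them LP cells and 1 of cluster 12. The ratio was 1.52 with an interval of 0.34 to 2.82, and the UMIs were too few for the rule. *Plat*, the tissue-type activator, took 26, 37, 38 and 36 UMIs, or 1.01 CPM over all libraries. Its ratio of 0.46 (-0.04 to 0.97) did not meet the rule. *Plat* reached 169.3 CPM in WT and 444.0 CPM in mutant cells of cluster 12, which gave 50 of its 137 UMIs from 76 cells.

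*Tfpi* and *Thbd*, the inhibitors of the start and the spread of clotting, were scarce, and *Thbd* was found mainly in cluster 12. *Thbd* had 1 and 7 UMIs in the WT pair and 6 and 6 in the mutant pair. Of these 20 UMIs, 19 fell in cluster 12 and none in LP, LI or ML cells. *Tfpi* had 0 and 1 UMIs in the WT pair and 1 and 4 in the mutant pair. Of these, 4 fell in cluster 12, all of them from mutant cells, and 2 in ML cells. In ML cells 1 *Tfpi* UMI per genotype thus stood beside 37026 WT and 33553 mutant UMIs of *F3*. Cluster 12 is the one with endothelial and fibroblast markers, and it held 43 WT and 33 mutant cells.

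Other clotting genes were counted in lists, of which 58 of 59 genes had a single row in the table (*Itgam* did not) and 7 had no UMI. In all cells 32 had enough UMIs, 0 were higher and 1 lower by the rule, and their median log2 ratio was -0.01. Of all genes tested, 3.23% were higher and 1.17% lower. Of 13 coagulation factors, 2 had enough UMIs and none met the rule. The most abundant was *Vwf*, which encodes von Willebrand factor, a carrier best known from endothelium. It stood at 8.78 and 8.89 CPM in WT and 11.9 and 12.01 CPM in mutant libraries, and ML cells held 566 of its 646 WT UMIs and 643 of its 747 mutant UMIs. ML cells held 77.7% of the WT UMIs and 73.2% of the mutant UMIs of all genes. Of 11 anticoagulants, 5 had enough UMIs and none met the rule, with *Anxa5*, whose product shields membranes from clotting factors, at 293.3 to 305.0 CPM in WT and 287.0 to 302.6 CPM in the mutant. *Proc*, the gene of the liver's protein C, was named after its values were seen. It stood at 63.3 CPM in WT and 58.6 CPM in mutant cells and at 72.9 CPM in WT ML cells against 8.33 CPM in LP cells.

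Of 9 fibrinolysis genes, 5 had enough UMIs. None met the rule in all cells. *Serpine2*, which encodes an inhibitor of plasminogen activators and thrombin, met the rule as higher in cluster 11, from 22.4 and 30.6 CPM to 39.0 and 43.6 CPM, and not in all cells, LP cells or ML cells. It was 1 of 24 genes of all lists with enough UMIs in cluster 11, where 2.7% of 10223 genes were higher and 3.17% lower. The plasminogen-binding annexin *Anxa2* was the most abundant, at 754.6 and 783.1 CPM in WT and 744.1 and 772.8 CPM in mutant libraries, which overlapped. Of 4 protease receptors, *F2rl1* alone had enough UMIs, at 14.4 CPM in WT and 17.3 CPM in mutant cells. Of the 9 fibrinogen receptors and crosslinking genes, 7 had enough UMIs and none met the rule. The transglutaminase *Tgm2*, an enzyme that can crosslink matrix proteins, stood at 1502.3 and 1459.9 CPM in WT and 1790.2 and 1790.7 CPM in mutant libraries, a log2 ratio of 0.27.

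Among the 4 fibrinogen-like genes, *Fgl1* was the one lower by the rule. It stood at 4.48 and 3.71 CPM in WT and 2.26 and 2.81 CPM in mutant libraries, a log2 ratio of -0.68 (-0.97 to -0.40), and the most abundant, *Angptl4*, at 108.1 and 110.9 CPM in WT and 92.1 and 92.2 CPM in mutant libraries. Of 9 regulators of fibrinogen genes in the acute phase response, all had enough UMIs and none met the rule, with a median log2 ratio of -0.10. *Socs3*, a target and brake of STAT3, was the most abundant, at 1724.6 and 1745.1 CPM in WT and 1515.4 and 1554.7 CPM in mutant libraries, a log2 ratio of -0.18 (-0.19 to -0.16).

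Genes with patterns most like the members were taken over 22 points, which were clusters 1 through 11 in each WT library, by Pearson's r of log2(CPM + 1). The points of a library share their cells' depth and the clusters were drawn from these values, so r is a description. For *Fgb* the nearest of 12333 genes were *Vamp5*, *Cited1* and *Grb14* (r = 0.96, 0.96 and 0.95), with r between 0.91 and 0.95 over the 22 mutant points. For *Fgg* they were *Alcam*, *Col8a1* and *Tmprss2* (r = 0.98, 0.97 and 0.97), for *F3* *Hagh*, *Fam43a* and *Mboat1* (r = 0.97, 0.96 and 0.96), and for *Plaur* *Krt13*, *3110043O21Rik* and *Isg20* (r = 0.94, 0.93 and 0.92). *Krt13* had r = 0.42 over the mutant points. *Fgb* and *Fgg* had r = 0.81 with each other in WT and 0.79 in the mutant, and *Fgb* and *F3* had 0.40 and 0.45. *Fgg* and *F3* had 0.70 and 0.71. *Plaur* had 0.79 and 0.86 with *F3*, 0.68 and 0.79 with *Fgg*, and 0.59 and 0.69 with *Fgb*. A high r was thus not particular to the pair of chains.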

How the data were processed

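Single luminal cells were sequenced with a droplet kit that counts 3′ ends, in 2 libraries per genotype. The submitters' notes name bcl2fastq 2.20, CASAVA 1.8, GSNAP and GRCm38. The authors deposited 1 signal value per gene and cell (52636 genes, 32439 cells), which is the UMI count scaled by 1 factor per cell, with their clusters (Seurat resolution 0.6). UMIs were recovered by dividing by each cell's smallest value, and 100.0% of nonzero values came within 0.02 of a whole number. Because the unit is a scaled signal, no count model was fitted.

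UMIs were summed by library, class and cluster and given as CPM. Intervals are 95%, exact Poisson for CPM and exact binomial (Clopper-Pearson) for shares and ratios, and cover counting error only. The rule asked for a fold of 1.5, for 50 UMIs or more in 1 of the genotypes, and for no overlap between WT and mutant libraries. For shares of cells, each cell was thinned to 1000 UMIs, leaving out 45 WT and 252 mutant cells below that depth. No doublet caller was run. Other clotting genes were named where they met the rule or had the most UMIs of their list, except *Proc*, which was named after its values were seen. Some genes of these lists are not reported here and were left out of their counts. The members and lists were chosen with earlier results of these data known. The rule and the interval of a log2 ratio were tested on simulated counts, and the other steps were not. Python 3.11.15, numpy 2.4.6, pandas 2.3.3 and scipy 1.17.1 were used, and matplotlib 3.10.9 for figures.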

Additional observations from a re-analysis of the deposited data

How the results depend on the processing

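For 45 values, 318 pairs of a value and an alternative were computed. In 240 the value moved by less than the spread between libraries (a count by less than 1.5 times), and in 78 by more. For log2 ratios this spread came from the same libraries that were left out in turn. Leaving out a library could therefore hardly move a ratio by more than the spread. Such pairs are among the 240 and do not test how stable the ratios are. For *Fgb* in all cells the spread was 0.079 around a ratio of -0.68. For shares of cells the spread was that of the counting interval. Of the log2 ratios, 0 changed direction. Counts and shares of cells have no sign, so their pairs could not change direction and say nothing on this point. The all-cell log2 ratio of *Fgb* was -0.76 as a mean over cells and -0.58 without cluster 11. That of *Fgg* was -1.02 as a mean over cells, -0.75 without cluster 11 and -0.92 without clusters 3, 12 and 13. Leaving out each library in turn gave -0.74 to -0.62 for *Fgb*, -0.97 to -0.93 for *Fgg*, 0.10 to 0.17 for *F3* and 0.34 to 0.37 for *Plaur*. Of the 9 genes, 2 were lower by the rule, but 1 (*Fgg*) without cluster 11 and 0 at a fold of 2. The count higher was 0, but 1 as a mean over cells (*Plat*), 1 with a minimum of 20 UMIs (*Plau*), 3 with no minimum (*Tfpi*, *Plau* and *Thbd*) and 2 at the lower fold tried (*Plat* and *Plaur*). With a library left out it ranged from 0 to 1, the 1 being *Plat* without WT library B.

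Over all genes, 532 were higher and 193 lower. These counts were 967 and 404 with a minimum of 20 UMIs, 297 and 115 with 100, 2920 and 1428 with none, 2086 and 630 at the lower fold and 68 and 40 at a fold of 2. Without cluster 11, 126 were lower. Leaving out a library gave 382 to 848 higher (819 without WT library A, 848 without mutant library B) and 154 to 319 lower (319 without mutant library B). Thinned to 2000 UMIs, 22.8% of WT and 13.5% of mutant ML cells had both chains, and 33.4% and 24.2% without thinning. Thinning to 2000 UMIs left out 2935 WT and 2455 mutant cells of all classes, so it covers a deeper set of cells. Without thinning the genotypes differed in depth, with medians of 3508 UMIs per WT ML cell and 4069.5 per mutant ML cell. No paired analysis was possible because the table does not give the libraries' replicate numbers. With 1 pool of mice per genotype, differences between pools and genotypes cannot be told apart.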
